A study of Arabidopsis thaliana with 42 samples.

Results

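The set consists of 150 genes of *Arabidopsis thaliana* whose z-scores were higher in darkened than in light wild-type (WT) leaves at 6 h and close to those of light leaves at 3 d and 6 d. The 6 h difference could lie in high dark leaves, in low light leaves or in both. They were selected on the deposited values themselves, which are z-scores. For every gene the 42 libraries average 0 with an SD of 1, so a difference between groups is in SDs of that gene, and fold changes, levels and sequencing depths are not recoverable from the values. Of 27050 genes, 17536 had a lowest value that was not shared by 2 or more libraries. Among these, 1142 differed by less than 0.5 between individually darkened leaves (IDLs) and light leaves of WT at both 3 d and 6 d. The 150 of them with the highest difference between IDL and light at 6 h were taken. A cut at the same height without the demand for flat late values would have held 1842 genes, of which 1692 were not flat.

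Leaves came from WT Col-0 and from *rpn12a-236*, an EMS mutant in the Col-0 background that carries a premature stop in RPN12a, a subunit of the regulatory particle of the 26S proteasome. In both genotypes single leaves of plants under short days were covered while the rest of the plant stayed in the light. The 14 groups of 3 libraries were WT in the light at 0 d, 6 h, 1 d, 3 d and 6 d, WT IDLs at 6 h, 1 d, 3 d and 6 d, *rpn12a-236* in the light at 0 d, and *rpn12a-236* IDLs at the 4 later times. Pools of 2 leaves, taken from independent plants, made up the replicates. Harvest was at 2 pm for 6 h and at 8 am for all other times, and no *rpn12a-236* light leaves of the later times were analysed here. The RPN12a transcript itself separated the genotypes, with z-scores from -1.31 to -0.12 in the 27 WT libraries and from 1.18 to 1.43 in the 15 mutant libraries. The mutant allele came from mutagenesis followed by backcrossing, and only this allele was profiled.

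When a single leaf of a plant is darkened, it stops fixing carbon while the plant around it does not, and within hours it draws on sugars, then amino acids and lipids, as respiratory substrates. Loss of active phytochrome releases the PIF transcription factors, and the fall in sugars activates energy-stress kinases of the SnRK1 family, so that dark-inducible genes rise early. Expression also follows the circadian clock and the light of the day, so dark and light leaves of the same hour are the comparison that sets darkness apart from the hour. Over days the darkened leaf enters senescence and its chlorophyll is lost.

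A pair of libraries stood apart for these genes. In replicate 3 of WT light leaves at 6 h the mean z-score of the 150 genes was -2.62, against -0.98 and -0.65 in replicates 1 and 2. This library held the lowest of 42 values for 90 of the 150 genes (60%), against 2660 of the 17536 genes without a shared lowest value (15.2%), and no other library held the lowest value of more than 13 of the 150. In it z-scores were lower the longer the gene, with a Spearman rho of -0.47 between z-score and gene length across 17472 genes (genes within a library are not independent), while 40 other libraries had values from -0.14 to 0.18. The 150 genes were also long, with a median of 3709.5 bases from annotated start to end, against 2445 bases for all genes without a shared lowest value. Replicate 2 of *rpn12a-236* IDLs at 6 d had a rho of -0.20 and a mean over the 150 genes of -0.85, against 0.15 and 0.21 in replicates 1 and 3. The rule depends on the light library of 6 h. Without it 95 of the 150 genes would still have been taken and 55 would not, and counts of calls are given below for all 150 genes and for these 95 and 55. The study's methods state that RNA integrity and purity were checked, but values per library were not given in the sources used here, and the part of RNA quality in these values was not tested.

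**Figure D1:**
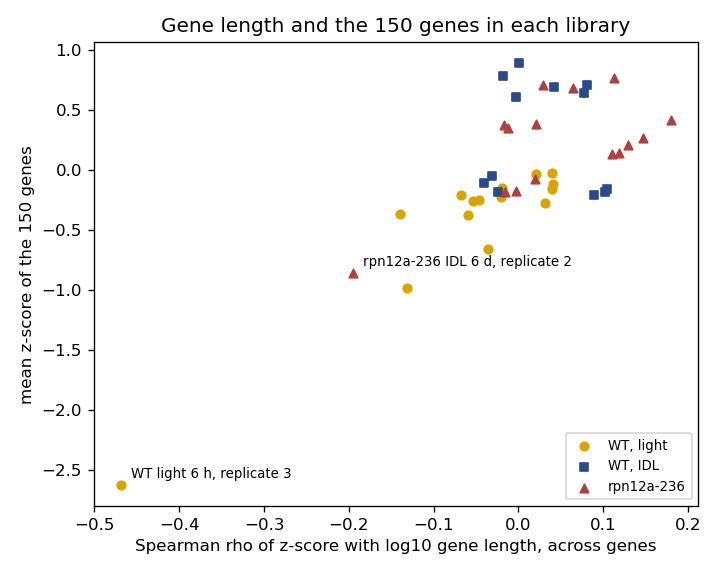
Each point is 1 of 42 libraries. The horizontal axis is the Spearman rho between z-score and log10 gene length across 17472 genes, and the vertical axis is the mean z-score of the 150 genes. Replicate 3 of WT light leaves at 6 h lies alone at -0.47 and -2.62, and replicate 2 of *rpn12a-236* IDLs at 6 d at -0.20 and -0.85.

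The promoters of 4 members, taken as examples without a rule set beforehand, are given from the RefSeq annotation of the TAIR10.1 assembly. They run from 250 bases before to 50 bases after the annotated start, in the direction of transcription. GDH1 encodes a glutamate dehydrogenase subunit and lies on the plus strand of chromosome 5 (promoter at chr5:6005785-6006084). IAA7, an Aux/IAA repressor of auxin responses, lies on the plus strand of chromosome 3 (chr3:8194356-8194655), CRK11, a cysteine-rich receptor-like kinase gene, on the minus strand of chromosome 4 (chr4:12143809-12144108) and WRKY22, a transcription factor gene, on the minus strand of chromosome 4 (chr4:524200-524499). Capitals mark matches on either strand to the G-box CACGTG, the W-box core TTGACC or TTGACT, and the evening element AAATATCT, which are sites of factors that act in light, defence and clock responses. GDH1 and IAA7 had 1 G-box each, CRK11 had 4 W-box cores of which the last pair adjoin, and WRKY22, the transcription factor gene among the 10 highest at 6 h, had none of these letters in this window.
GDH1: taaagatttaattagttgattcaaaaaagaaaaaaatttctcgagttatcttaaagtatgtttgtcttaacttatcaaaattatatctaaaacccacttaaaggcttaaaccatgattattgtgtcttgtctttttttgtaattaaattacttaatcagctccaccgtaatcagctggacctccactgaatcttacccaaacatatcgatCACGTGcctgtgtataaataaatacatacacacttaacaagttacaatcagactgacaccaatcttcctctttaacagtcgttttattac
IAA7: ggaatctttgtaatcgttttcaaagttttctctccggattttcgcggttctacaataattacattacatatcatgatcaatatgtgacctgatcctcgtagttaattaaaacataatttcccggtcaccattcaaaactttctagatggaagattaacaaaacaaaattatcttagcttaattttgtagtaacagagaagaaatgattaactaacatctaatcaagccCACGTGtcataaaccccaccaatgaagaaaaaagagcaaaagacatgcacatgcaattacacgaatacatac
CRK11: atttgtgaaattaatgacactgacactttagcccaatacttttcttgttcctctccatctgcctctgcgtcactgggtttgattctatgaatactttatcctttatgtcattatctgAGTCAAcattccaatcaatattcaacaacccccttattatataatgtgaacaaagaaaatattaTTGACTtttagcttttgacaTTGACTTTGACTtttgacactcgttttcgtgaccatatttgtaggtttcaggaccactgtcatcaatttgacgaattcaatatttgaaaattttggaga
WRKY22: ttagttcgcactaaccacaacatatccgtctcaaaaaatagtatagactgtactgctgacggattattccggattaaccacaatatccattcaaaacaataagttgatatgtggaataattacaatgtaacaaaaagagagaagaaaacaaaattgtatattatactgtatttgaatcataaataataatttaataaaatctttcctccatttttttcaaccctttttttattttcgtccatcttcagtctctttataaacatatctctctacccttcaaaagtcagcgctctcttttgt

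Over all 150 promoters the share with each motif was set beside that of the 26790 annotated promoters of genes with deposited values. CACGTG stood in 10 member promoters (6.67%, against 7.83% of all), its core ACGT, which every G-box contains, in 71 (47.3% against 49.3%), and AAATATCT in 9 (6% against 5.6%). The W-box core TTGACC or TTGACT, the site bound by WRKY factors such as the member WRKY22, stood in 59 (39.3% against 32.0%). TATCCA, an element of sugar-responsive promoters, stood in 27 (18% against 16.1%), GATAAG in 22 (14.7% against 15.0%) and CGCGT, the core of CAMTA sites, in 19 (12.7% against 9.11%). CCGAC was found in 15 (10% against 15.4%), GAANNTTC in 12 (8% against 11.7%) and GCCGCC in 2 (1.33% against 2.66%). Over the 17471 promoters of genes without a shared lowest value, from which the members come, CACGTG stood in 8.74%, ACGT in 49.5% and AAATATCT in 5.75%. There the W-box core stood in 32.2%, TATCCA in 16.6%, GATAAG in 15.1% and CGCGT in 9.58%. The shares of CCGAC, GAANNTTC and GCCGCC were 16.6%, 11.5% and 2.79%. Both strands were searched, and these shares are descriptions without a test.

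The values that chose the genes were as follows. At 6 h the difference between WT IDL and WT light ran from 1.71 to 3.55 with a median of 2.13, whereas the median over all genes without a shared lowest value was -0.01. Of the 150 genes, 133 had all 3 dark libraries above all 3 light libraries. The mean z-score over the 150 genes was 0.76 ± 0.14 (SD, n = 3) in WT IDLs and -1.42 ± 1.05 (SD, n = 3) in light leaves at 6 h, and the large SD of the light leaves came from replicate 3. Without that library the median difference was 1.62, the range was -0.09 to 3.5, 11 genes were under 0.5 and 1 was negative. The 95 genes that the rule would still take had a median of 2.2 with the library and 1.94 without it, and the other 55 a median of 1.99 with and 0.90 without it. The median gene length was 2964 bases in the former and 5001 bases in the latter. In bulk leaves, fewer cells of a type and less RNA per cell cannot be told apart behind any lower value.

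**Figure D2:**
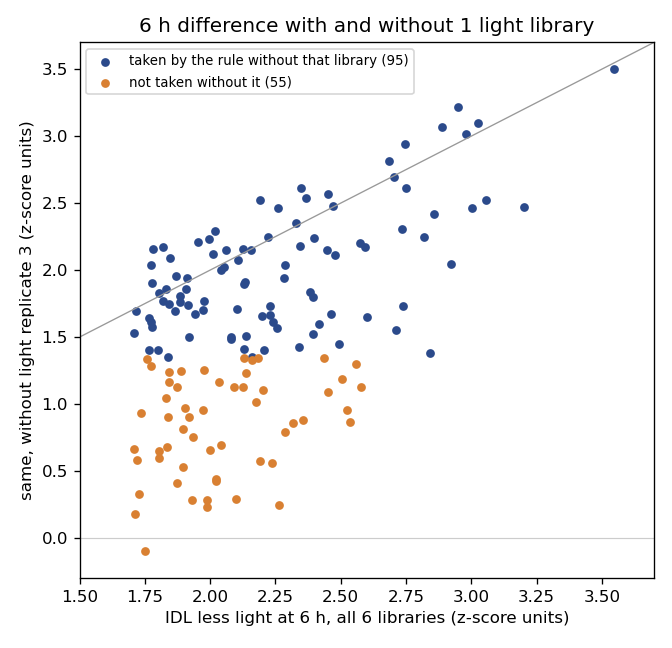
Difference between WT IDL and WT light at 6 h for each of the 150 genes, in z-score units, with all 6 libraries (horizontal) and without replicate 3 of the light leaves (vertical). The line marks equal values. The 95 genes still taken by the rule lie near the line and the 55 others fall below it, 11 of the 150 to under 0.5.

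The 3 genes ranked last were AT2G48160, AT5G02425 and AT2G03240, each with a difference of 1.71, and the 3 just outside were AT5G01315, AT2G08575 and SPPL5, each with 1.7. At the limit of flatness AT2G31751, AT3G60860 and UGT71B6 were just inside with 0.498, 0.498 and 0.4999, while AT2G28240, HAT2 and SHV3 were just outside with 0.502, 0.502 and 0.503. The shade-induced HD-ZIP gene HAT2 thus missed the set by its 6 d value, while its relative HAT1 was taken.

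The 10 genes with the highest difference at 6 h covered light signalling, immunity and secondary metabolism. PKS2, a phytochrome kinase substrate that acts in phototropin signalling, had the highest value of 3.55. Its z-scores in WT light leaves at 6 h were -3.49, -2.93 and -3.35, while those of IDLs at 6 h were 0.64, 0.10 and 0.14. The dark leaves were close to the light leaves of 0 d, which had 0.00, 0.14 and -0.29, so that for PKS2 it was the light leaves of 2 pm that stood low. RPS4, an immune receptor of the TIR-NBS-LRR class, had a difference of 3.2, with 1.85, 2.44 and 1.06 in the IDLs and -1.0, -0.38 and -2.88 in the light. For this gene the dark leaves were high and light replicate 3 was low, and without that library the difference was 2.47. WRKY22, known for its part in basal immunity and in dark-induced leaf senescence, had 1.8, 1.32 and 1.56 in IDLs and -2.0, -1.08 and -1.31 in the light. Its difference of 3.03 was 3.1 without light replicate 3, so that it did not rest on that library. The others were AT1G28240 of the DUF616 family (3.06, and 2.52 without the library), the phospholipase D gene PLDGAMMA2 (3.00 and 2.47), the aldo-keto reductase gene AT1G60730 (2.98 and 3.02), ESM1, a modifier of glucosinolate breakdown (2.95 and 3.22), AT3G51640 of unknown function (2.92 and 2.05), the sulfotransferase gene ST2B (2.89 and 3.07), and the F-box gene AT1G70590 (2.86 and 2.42). All 10 stayed above 2 without the library.

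Set against the light leaves of 0 d, the genes reached their 6 h difference in different ways, with the reservation that the hour of harvest differed. For 103 genes the IDLs lay above and the light leaves below 0 d, for 22 only the IDLs had moved away from 0 d in the direction of the difference, and for 25 only the light leaves had. The median change from 0 d was 1.07 in IDLs and -1.21 in light leaves, or -0.48 in light leaves when replicates 1 and 2 alone were used. Genes that were high in the dark without a low in the light included GDH1, the immune regulator RIN4, the LysM receptor kinase gene LYK4 and the lectin receptor kinase gene AT1G61370 (RIN4 is named here after its values were seen). GDH1 had 2.21, 2.26 and 1.66 in IDLs at 6 h, -1.04, -0.75 and -0.32 in light leaves of that hour and -1.0, -0.93 and -0.71 at 0 d. Its light leaves overlapped those of 0 d and its dark leaves lay far above both. Among the 25 genes with the opposite pattern was the noncoding RNA gene AT4G36032, which had -3.24, -2.55 and -2.62 in light leaves at 6 h, -0.54, -0.72 and -0.95 in IDLs and -0.08, -0.78 and -0.36 at 0 d. Its dark leaves did not exceed 0 d. The 22 genes had a median difference of 1.25 between IDL and light at 1 d and the 25 genes one of 0.15. These groups also depend on light replicate 3 of 6 h. Of the 22 genes 19 were among the 95 taken without that library, and of the 25 genes 9. Light leaves of 6 h lay below 0 d for 128 members with all libraries and for 115 with replicates 1 and 2 alone. Whether the 1 d difference follows the pattern at 6 h was not tested.

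**Figure D3:**
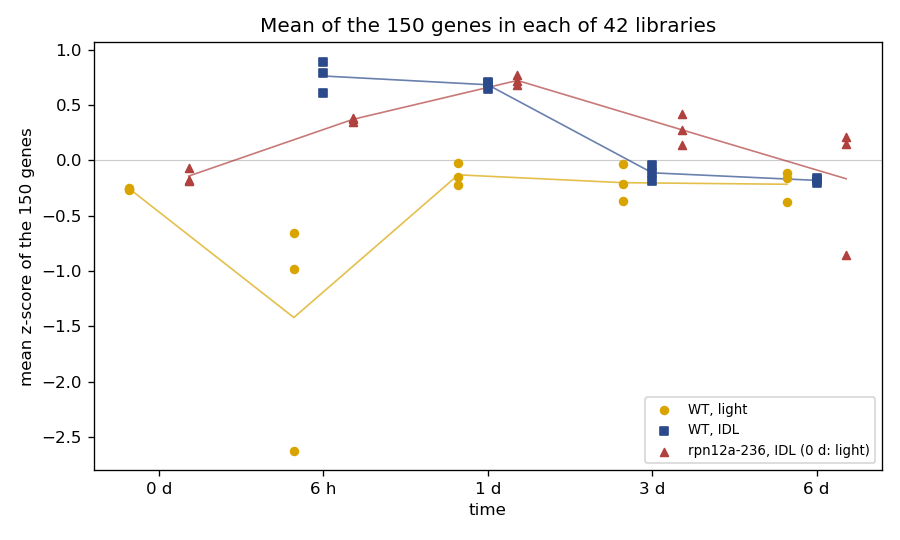
Mean z-score of the 150 genes in each of 42 libraries against time, with a line through the group means of 3 libraries. WT IDLs lie high at 6 h and 1 d (group means 0.76 and 0.68) and near the light leaves at 3 d and 6 d, and the light leaves of 6 h spread from -2.62 to -0.65. The rule asked for the difference at 6 h and the nearness at 3 d and 6 d.

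The 1 d libraries took no part in the choice of the genes, so the comparison of WT IDL with WT light at 1 d, at the same hour of harvest, could be tested. Of the 150 genes, 50 (33.3%) were higher in IDLs and 1 (0.667%) was lower, calls being made at adjusted p-values up to 0.01 (limma on the 27 WT libraries, Benjamini-Hochberg over 24166 genes). Over all genes tested, 18.7% were called higher and 22.3% lower, and over the 17536 genes without a shared lowest value, from which all members come, 23.4% and 25.9%. The median difference of the members was 0.82 (range -0.99 to 2.61), and 133 of 150 were above 0, against a median of -0.04 and 49.1% above 0 over genes without a shared lowest value. The mean over the 150 genes was 0.68 ± 0.033 (SD, n = 3) in IDLs and -0.13 ± 0.10 (SD, n = 3) in light leaves. The calls fell mostly among the 95 genes that the rule would take without light replicate 3 of 6 h, with 46 of 95 higher against 4 of 55. The median differences were 1.17 and 0.57. Light replicate 3 of 6 h was among the 27 libraries and entered the SE, so the calls cannot show how many of the 55 responded at 1 d. For the member SAP130b the SE was 0.90 here and 0.15 in the fit on 30 libraries used below, which lacked that library. A fit without that library called 66 members higher, and leaving out replicate number 1, 2 or 3 throughout called 31, 32 and 47. No share of all genes is given for these fits, so their counts have nothing to be compared with.

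The 5 members called higher with the lowest p at 1 d included 3 protein kinase genes. AT5G58620, which encodes a CCCH zinc-finger protein, had 1.96, 1.85 and 1.93 in IDLs and -0.62, -0.84 and -0.39 in light leaves, a difference of 2.53 (SE 0.21, adjusted p = 2.47e-09, limma). The groups did not overlap, and the value was close to that of 6 h, where the 3 IDL libraries had 1.74, 2.39 and 1.73. CDPK1, a calcium-dependent protein kinase, had 2.23, 1.58 and 2.29 in IDLs at 1 d against -0.63, 0.07 and -0.45 in the light, a difference of 2.37 (SE 0.30, adjusted p = 8.73e-07, limma). CRK11 had 0.97, 0.85 and 1.41 against -0.88, -1.02 and -0.91 (2.01, SE 0.23, adjusted p = 1.76e-07, limma). For both kinases every dark library was above every light library. At 3 d, where the rule asked for values near the light leaves, the IDLs of CRK11 had -0.82, -0.75 and -0.77. MPK2 rose by 1.90 (SE 0.22, adjusted p = 3.2e-07, limma), with 1.40, 0.95 and 1.21 in IDLs and -0.85, -0.74 and -0.55 in light leaves. AT1G65845, of unknown function, rose by 2.26 (SE 0.22, adjusted p = 2.53e-08, limma). These 5 calls held under every alternative tried. The only member called lower was AT4G36032 (-0.91, adjusted p = 0.00209, limma), and that call was lost when replicate 2 or replicate 3 was left out. Of 28 calls on genes named here at 1 d in WT, 15 held when each replicate number was left out in turn. Lost at least once were those on AT1G28240, PLDGAMMA2, GDH1, IAA7, MCCA, EXO70B2, HAT1, AT4G36032, AT5G62570, LCBK1, BAG7, LYK4 and AT2G11225. Of the 10 genes highest at 6 h, RPS4 (1.31, adjusted p = 0.0182), PKS2 (0.39, adjusted p = 0.145) and ESM1 (0.80, adjusted p = 0.0122) did not pass in limma at 1 d.

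**Figure D4:**
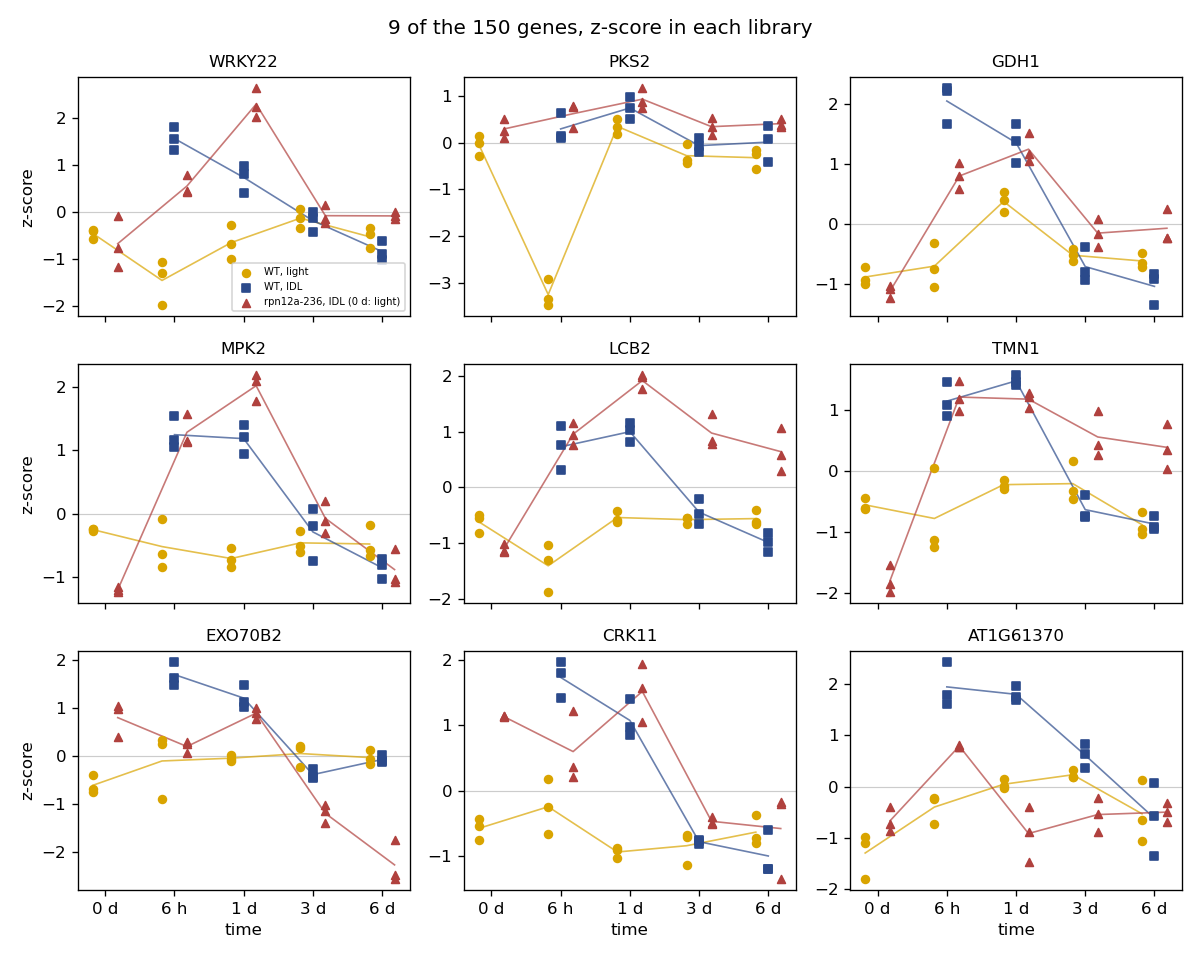
Z-scores of 9 members in each library against time, with lines through the group means of 3 libraries, for WT light leaves, WT IDLs and *rpn12a-236* (0 d in the light, IDLs later). GDH1, MPK2, LCB2, TMN1 and CRK11 are high in WT IDLs at 6 h and 1 d and near the light leaves at 3 d. The rule asked for the 6 h difference and for the nearness at 3 d. AT1G61370 is low at 1 d in *rpn12a-236* where it is high in WT.

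By known role, 66 protein-coding members could be placed in 6 groups, 15 members were annotated as noncoding RNA and 69 were placed in none (the groups were made after the values were seen and carry no test of their own). The 18 defence and immune receptor genes had a median 6 h difference of 2.29, or 1.7 without light replicate 3, and 15 of them were among the 95. At 1 d in WT 11 of 18 rose and none fell, with a median of 1.28, where 23.4% of the genes without a shared lowest value were called higher. LYK4, a co-receptor for chitin, had 0.38, 1.45 and 1.0 in IDLs and -1.48, -0.14 and 0.02 in the light at 1 d (1.48, SE 0.35, adjusted p = 0.00138, limma). EXO70B2, an exocyst subunit that acts in pattern-triggered immunity, had 1.11, 1.02 and 1.46 in IDLs and -0.11, -0.06 and 0.02 in the light (1.25, SE 0.24, adjusted p = 0.000165, limma). The dark and light libraries of both genes were apart at 1 d, and for EXO70B2 also at 6 h, with 1.48, 1.95 and 1.63 against 0.25, 0.32 and -0.91. DAR4, a TIR-NBS-LRR receptor with a LIM domain, and CPR5, a negative regulator of immune responses, were members by their low light values at 6 h, and dark and light leaves of 1 d differed by -0.05 in DAR4 (adjusted p = 0.947, limma).

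The 8 light and growth regulators had a median 6 h difference of 2.13 that was 2.2 without light replicate 3, and only 1 of them was lowest in that library. HAT1, a shade-responsive HD-ZIP factor, had 0.73, 0.48 and 0.15 in IDLs and -1.69, -1.71 and -0.58 in light leaves at 6 h, and it rose at 1 d by 1.55 (SE 0.32, adjusted p = 0.000295, limma). IAA7 had 0.94, 1.25 and 0.44 in IDLs and -0.14, -0.53 and -0.31 in light leaves at 1 d (1.2, SE 0.22, adjusted p = 8.65e-05, limma). For these genes dark and light leaves were separate at both times. BBX28, a B-box protein of light signalling, had -2.58, -2.72 and -2.30 in the light and 0.33, -0.51 and -0.06 in IDLs at 6 h. At 1 d its dark libraries of 1.34, 1.24 and 1.24 lay close to light libraries of 1.2, 1.03 and 1.13 (0.16, adjusted p = 0.502, limma). In BBX28, as in PKS2, the light leaves of 2 pm thus stood low against the light leaves of 0 d, which had a mean of -0.58 in BBX28. Morning light values of BBX28 were not steady, with a mean of 1.12 at 1 d, above its IDLs of 6 h too. At 8 am of 1 d neither gene passed the test.

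Carbon and nitrogen metabolism was represented by 7 genes, with a median 6 h difference of 1.88 (1.81 without light replicate 3). GDH1, which releases ammonium and carbon skeletons from glutamate, rose at 1 d with 1.01, 1.66 and 1.38 in IDLs against 0.19, 0.40 and 0.53 in the light (0.98, SE 0.22, adjusted p = 0.000841, limma). MCCA, the biotin-carrying subunit of methylcrotonyl-CoA carboxylase in leucine breakdown, had 0.14, 0.35 and 0.05 against -0.62, -0.56 and -0.60 (0.77, SE 0.17, adjusted p = 0.000594, limma). The groups did not overlap in either gene, but the MCCA call was lost on leaving out any 1 replicate number. The 2-oxoglutarate dehydrogenase gene AT5G65750 of the citric acid cycle and emb2742, a CTP synthase, were high in IDLs at 6 h, with 1.75, 2.4 and 1.79 and with 1.36, 1.25 and 0.95, and did not pass at 1 d (0.32, adjusted p = 0.54, and 0.34, adjusted p = 0.269, limma).

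Of 9 genes for membrane lipids, transporters and channels, all had positive differences at 1 d in WT and 6 rose (median 1.25, against 23.4% of genes without a shared lowest value called higher). LCB2, the catalytic subunit of serine palmitoyltransferase that starts sphingolipid synthesis, had 1.11, 0.76 and 0.32 in IDLs and -1.29, -1.04 and -1.88 in light leaves at 6 h, and 1.02, 1.16 and 0.82 against -0.42, -0.61 and -0.58 at 1 d (1.54, SE 0.21, adjusted p = 2.48e-06, limma). LCBK1, a sphingoid base kinase, rose by 1.06 (SE 0.27, adjusted p = 0.00251, limma) and PLDGAMMA2 by 1.39 (SE 0.31, adjusted p = 0.00086, limma), and these calls were each lost when either of 2 replicate numbers was left out. TPC1 had 0.91, 1.25 and 0.61 in IDLs against 0.31, 0.68 and 0.77 in the light at 1 d, where the groups overlapped (0.34, adjusted p = 0.327, limma). Among 10 genes of vesicle traffic 2 rose at 1 d (median 0.84, against 23.4% of genes without a shared lowest value called higher). Of these, 8 were lowest in light replicate 3 of 6 h, which entered the SE, so the count cannot show how many responded at 1 d. TMN1, a multi-span Golgi membrane protein, had 1.45, 1.57 and 1.40 in IDLs and -0.29, -0.24 and -0.14 in the light (1.69, SE 0.25, adjusted p = 8e-06, limma).

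For the 14 genes of chromatin and RNA processing much of the 6 h difference lay in light replicate 3. Their median 6 h difference was 1.98 with and 1.03 without it, and 13 of 14 had their lowest value in it. Only 3 were among the 95, and their median gene length was 6033 bases. At 1 d in WT 1 of 14 rose (against 23.4% of genes without a shared lowest value), with a median of 0.18. The fit held light replicate 3 of 6 h, which entered the SE, so this count cannot show how many responded at 1 d. SAP130b, a splicing factor subunit with a near-identical copy elsewhere in the genome (so that its reads are uncertain), had -0.15, -0.03 and -6.15 in light leaves at 6 h and 0.23, 0.21 and 0.02 in IDLs. Its difference lay in 1 library. The same was seen for HB-1 (-0.61, -0.02 and -5.11 in the light) and SUVR5 (-0.93, -0.33 and -4.82), which were chosen for mention after their values were seen. For the genes of vesicle traffic the median was 2.25 with and 1.13 without the library, and 8 of 10 were lowest in it.

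Members also overlapped other genes. Of the 150, 51 overlapped a gene on the opposite strand and 4 overlapped another member. The protocol in the labels names no step that marks the strand, while the authors quantified with a stranded setting, so that reads of opposite-strand partners may not be told apart. In 10 pairs that shared over 1000 bases the z-scores of both genes correlated over the 42 libraries with r from 0.31 to 0.99 (median 0.89, and 8 pairs over 0.8), and in 48 pairs with less overlap the median was 0.11. The noncoding AT2G31751 lies opposite UGT74D1, a glucosyltransferase gene, with r = 0.99, and AT1G05453 lies opposite CDPK1 with r = 0.80 (the pairs are named after their values were seen). Whether the members of such a pair carry separate signals was not tested.

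Leaves of *rpn12a-236* were compared with their own 0 d light leaves, since no later light leaves of the mutant were analysed (limma on 30 libraries, 24407 genes tested). At 6 h 40 members were higher and 12 lower, where 16.5% and 18.4% of all genes were called (21% and 22.2% of genes without a shared lowest value), and here the hour of harvest and darkness cannot be told apart. At 1 d, at the same hour as 0 d, 55 members (36.7%) were higher and 2 (1.33%) lower, with a median difference of 0.78. Of all genes 20.2% were higher and 22.8% lower, and of those without a shared lowest value 26.1% and 27.6%. At 1 d, 3 d and 6 d darkness and time since 0 d cannot be told apart, for lack of mutant light leaves. WT light leaves changed too between 0 d and 1 d. BBX28, 1.73 higher in the mutant at 1 d, went from -0.58 to 1.12 in them, and HAT1 from 0.15 to -1.71. The mean of WT light leaves over the members was -0.26 at 0 d and -0.13 at 1 d. The part of time in the mutant calls was not tested. At 3 d 39 (26%) were higher and 20 (13.3%) lower, against 22% and 24.7% of all genes and 28.5% and 28.6% of those without a shared lowest value. At 6 d 26 (17.3%) were higher and 32 (21.3%) lower, against 24% and 26.7% of all genes and 30.1% and 30.9% of those without a shared lowest value. The members' share of higher calls at 3 d and 6 d was thus below that of all genes without a shared lowest value. The rule had asked for flat WT values at these times, so a lower share of calls could follow from the choice itself. No share is given for the 1142 flat genes alone. The medians were 0.58, 0.78, 0.47 and 0.12 at the 4 times. Higher among the 95 genes were 37, 45, 29 and 22 at the 4 times, and among the other 55 genes 3, 10, 10 and 4. Lower were 7, 2, 15 and 22 of the 95, and 5, 0, 5 and 10 of the 55. At 6 d, where 1 mutant library stood apart, a fit without it called 50 higher and 23 lower, so the balance at that time depends on that library. The share of all genes in that fit is not given.

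**Figure D5:**
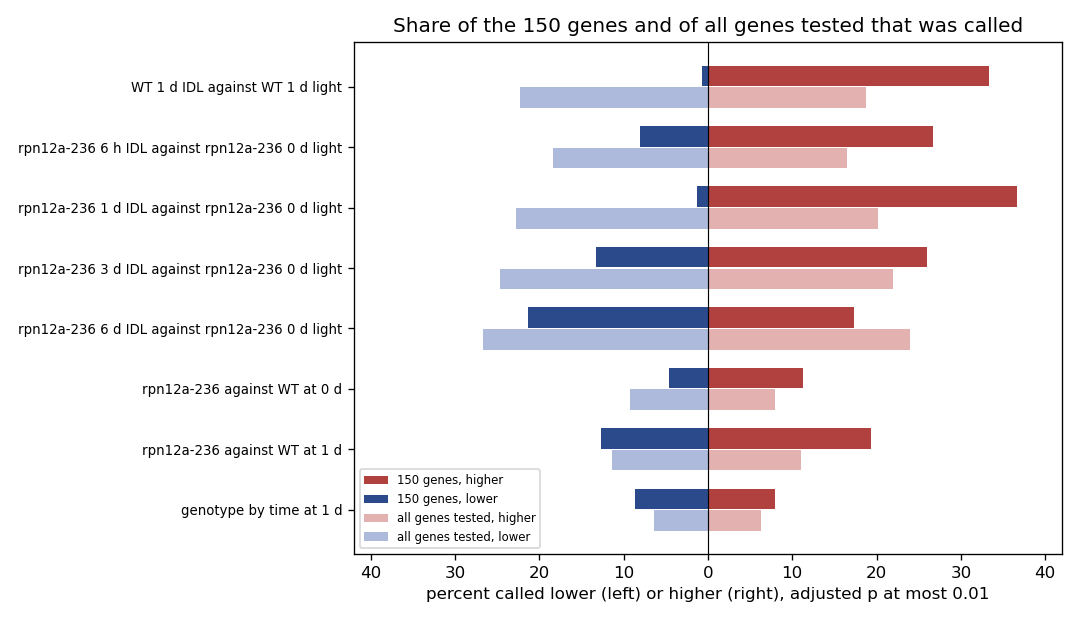
Percent of the 150 genes and of all genes tested called higher (right) or lower (left) in each of 8 comparisons at an adjusted p of at most 0.01. On the higher side the bars of the 150 genes exceed those of all genes in every comparison except *rpn12a-236* at 6 d against 0 d. In WT at 1 d they are 33.3% against 18.7%. On the lower side they are far shorter for darkened leaves of 1 d within each genotype (0.667% against 22.3% in WT). Genes without a shared lowest value, from which the members come, are not drawn (23.4% higher and 25.9% lower in WT at 1 d).

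At 1 d the members called higher in *rpn12a-236* with the lowest p were MPK2, TMN1, LCB2, WRKY22 and TPC1. MPK2 had -1.21, -1.17 and -1.25 at 0 d and 2.2, 1.78 and 2.1 at 1 d, a difference of 3.23 (SE 0.21, adjusted p = 2.65e-11, limma). LCB2 had -1.01, -1.14 and -1.15 at 0 d and 1.97, 2.02 and 1.76 at 1 d (3.02, SE 0.21, adjusted p = 7.04e-11, limma). Both genes were at their highest of the time course at 1 d in the mutant. WRKY22 had -1.18, -0.77 and -0.09 at 0 d and 2.64, 2.23 and 2.02 at 1 d (2.98, SE 0.23, adjusted p = 2.95e-10, limma), and TMN1 rose by 2.96 (adjusted p = 6.97e-11, limma) and TPC1 by 2.53 (adjusted p = 3.61e-09, limma). In the group of membrane lipids, transporters and channels 8 of 9 rose in the mutant at 1 d, with a median of 2.51, where 26.1% of genes without a shared lowest value were called higher. The 2 members that fell were emb2742 (-1.02, adjusted p = 0.0072, limma) and AT2G03240, an EXS family gene (-1.51, adjusted p = 0.00112, limma).

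At the other times in the mutant some members stayed high and others fell well below their start. TMN1 had -1.98, -1.85 and -1.53 at 0 d, 1.18, 1.46 and 0.97 at 6 h, 0.25, 0.43 and 0.99 at 3 d and 0.35, 0.77 and 0.04 at 6 d. It stayed above 0 d throughout, by 2.99 at 6 h (adjusted p = 9.42e-11, limma) and 2.17 at 6 d (adjusted p = 4.44e-09, limma). MCCA reached 2.18, 1.15 and 2.71 at 6 d, which was 2.73 above 0 d (adjusted p = 1.22e-08, limma), while the WT IDLs of 6 d had -0.52, -0.51 and -0.77. The rule had used these WT libraries and asked for values near the light leaves at 6 d. The genotypes can therefore not be compared on MCCA at 6 d by these values. LCBK1 was still high, by 2.52 at 3 d (adjusted p = 8.89e-09, limma) and by 1.90 at 6 d (adjusted p = 5.28e-07, limma), and AT5G65750 was 3.18 above 0 d at 6 h (adjusted p = 9.48e-09, limma). EXO70B2 moved the other way, from 0.38, 1.03 and 0.96 at 0 d to -1.16, -1.41 and -1.04 at 3 d and -1.76, -2.50 and -2.58 at 6 d (-3.07, SE 0.21, adjusted p = 1.95e-11, limma). The glycosyltransferase gene AT5G04480 fell by 3.47 at 6 d (adjusted p = 1.15e-09, limma), the NB-ARC gene AT5G45510 by 2.82 (adjusted p = 2.98e-07, limma), BAG7, an endoplasmic reticulum co-chaperone, by 2.38 (adjusted p = 8.41e-07, limma) and AT2G17150, of the RWP-RK family of nitrate-related regulators, by 2.28 (adjusted p = 4.06e-07, limma). At 6 h SBP1, a selenium-binding protein, had fallen most clearly, from 0.87, 1.1 and 0.41 to -1.64, -1.85 and -2.11 (-2.66, adjusted p = 1.59e-07, limma), and the calmodulin-binding protein gene AT5G62570 fell by 2.4 (adjusted p = 5.62e-06, limma). Of the calls on named genes in the mutant, 18 of 31 at 6 h, 20 of 28 at 1 d, 20 of 35 at 3 d and 23 of 31 at 6 d held when each replicate number was left out in turn.

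In light leaves of 0 d, 17 members were higher and 7 lower in *rpn12a-236* than in WT (11.3% and 4.67%, against 7.93% and 9.26% of all genes and 9.31% and 11.4% of those without a shared lowest value), with a median of 0.07. Among the 95 genes 14 were higher and 6 lower, and among the other 55 genes 3 and 1. Of the 18 defence genes 6 were higher and 1 was lower. CRK11 had 1.13, 1.13 and 1.14 in the mutant and -0.54, -0.44 and -0.75 in WT (1.71, SE 0.29, adjusted p = 0.000116, limma). DAR4 had 1.3, 1.12 and 1.28 against -0.79, -0.69 and -0.49 (1.89, SE 0.28, adjusted p = 1.89e-05, limma), and LYK4 0.32, 1.21 and 0.05 against -1.46, -1.16 and -1.74 (1.98, SE 0.33, adjusted p = 8.29e-05, limma). In these 3 genes the undarkened mutant was above every WT library of 0 d. EXO70B2 was 1.41 higher (adjusted p = 2.3e-05, limma) and AT2G03240 2.47 higher (adjusted p = 2.07e-05, limma). Lower in the mutant were TMN1 (-1.23, adjusted p = 0.000113), AT5G65750 (-1.45, adjusted p = 0.000869), MPK2 (-0.95, adjusted p = 0.00163) and the exocyst gene SEC5A (-2.18, adjusted p = 0.00352, all limma). On leaving out 1 replicate number in turn 7 or 8 members were called higher and 2 lower, and of the 17 calls on genes named here only DAR4, LYK4 and AT2G03240 held each time. The share of all genes in those fits, which held fewer libraries, is not given.

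Between IDLs of 1 d, 29 members were higher and 19 lower in *rpn12a-236* than in WT (19.3% and 12.7%, against 11% and 11.4% of all genes and 13.7% and 14.3% of those without a shared lowest value), with a median of 0.06. Among the 95 genes 25 were higher and 16 lower, and among the other 55 genes 4 and 3. CYP71B29, a cytochrome P450 gene, had 2.55, 3.00 and 2.39 in the mutant and 0.33, 0.08 and 0.24 in WT (2.43, SE 0.29, adjusted p = 1.06e-06, limma). WRKY22 was 1.56 higher (SE 0.23, adjusted p = 2.07e-05, limma), where its 1 d libraries had 0.81, 0.98 and 0.41 in WT. CPR5 was 1.33 higher (adjusted p = 5.55e-05, limma), with 1.09, 1.29 and 1.2 against 0.33, -0.68 and -0.07. The mutant was above WT in every library of these 3 genes. AT1G61370 had -1.46, -0.89 and -0.39 in the mutant and 1.75, 1.69 and 1.97 in WT (-2.71, SE 0.31, adjusted p = 6.86e-07, limma), and emb2742 had -2.94, -1.79 and -1.94 against 0.08, 0.89 and 0.46 (-2.70, SE 0.31, adjusted p = 6.66e-07, limma). Also lower were AT5G58620 (-1.71, adjusted p = 3.3e-06, limma), AT4G30060 of a glycosyltransferase family (-1.83, adjusted p = 3.13e-06, limma) and AT3G08640 (-1.92, adjusted p = 2.57e-05, limma). Among the higher genes were also AT2G11225 (1.7, adjusted p = 7.28e-06, limma) and AT4G32030 (1.35, adjusted p = 1.44e-05, limma), both of unknown function. At 6 h the mutant IDLs were below WT IDLs for 97 of 150 members (median -0.32), at 3 d for 45 (median 0.39) and at 6 d for 72 (median 0.04), values that carry no test because the WT libraries chose the genes. On leaving out 1 replicate number in turn 7 to 11 were called higher and 8 to 17 lower at 1 d, and 10 of 25 calls on named genes held each time, among them those on CYP71B29, WRKY22, AT1G61370 and emb2742 but not that on CPR5. Here too the share of all genes in the smaller fits is not given.

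The change from 0 d light to 1 d IDL itself differed between the genotypes for 25 members, 12 with a higher and 13 with a lower change in *rpn12a-236*, against 6.29% and 6.44% of all genes (interaction of genotype and time, limma on 30 libraries). The members' shares of 8% and 8.67% were close to the 8.13% and 8.05% of genes without a shared lowest value. In this fit the count thus does not set the members apart. A fit without mutant 6 d replicate 2, the library that stood apart, called more members in each direction, as given further below. The share of all genes in that fit is not given, so its counts have nothing to be compared with. Among the 95 genes 10 had a higher and 11 a lower change, and among the 55 genes 2 and 2. MPK2 rose more in the mutant (1.79, SE 0.30, adjusted p = 0.000181, limma), as did WRKY22 (1.78, SE 0.33, adjusted p = 0.000472, limma) and CYP71B29 (2.54, SE 0.41, adjusted p = 0.000121, limma). AT1G61370 had the lowest p, with a lower change in the mutant (-3.34, SE 0.44, adjusted p = 1.54e-05, limma). It rose from -1.8, -1.1 and -0.98 to 1.75, 1.69 and 1.97 in WT and went from -0.40, -0.73 and -0.86 to -1.46, -0.89 and -0.39 in the mutant. Its mean in WT light leaves also rose, from -1.29 at 0 d to 0.05 at 1 d. Without mutant light leaves of 1 d, the interaction cannot tell time since 0 d from darkness. CDPK1 (-2.22, adjusted p = 0.000138, limma) and EXO70B2 (-1.72, adjusted p = 0.000234, limma) also had lower changes in the mutant, where both started higher at 0 d, as did emb2742 (-2.46, adjusted p = 0.000308, limma) and AT3G08640 (-2.70, adjusted p = 7.72e-05, limma). These counts are fragile, with 2 to 5 called in each direction when 1 replicate number was left out, and among the named genes only the call on AT1G61370 held each time. Such fits held fewer libraries, and the share of all genes in them is not given. The fall in the counts can thus not be read as a trait of the members.

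The pathway lists, fixed with earlier results of these data known, held few members. Of 18 lists 4 held 7 members between them, and 14 held none. The list of sugar starvation and dark-inducible genes held GDH1 and MCCA, shade and PIF-regulated genes held BBX28 and HAT1, auxin response held IAA7, and touch and wounding held WRKY22 and EXO70B2. In WT at 1 d, where 18.7% of all genes were called higher and 22.3% lower, 23 of 33 sugar starvation genes tested were higher and 4 lower (median 1.48), and 23 of 37 shade genes were higher and 5 lower (median 1.45). Auxin response had 18 higher and 12 lower of 54 (median 0.29), and touch and wounding 14 higher and 5 lower of 36 (median 0.60). In *rpn12a-236* at 1 d, where 20.2% of all genes were higher and 22.8% lower, the counts were 25 higher and 1 lower of 33, 20 and 3 of 37, 15 and 7 of 53, and 12 and 11 of 36. Within these lists the members were thus a small part, GDH1 and MCCA returning to the level of light leaves at 3 d by the rule.

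None of the 150 genes was on the 5 lists of cell type markers, but some of these lists differed between the groups compared. The mean z-score of 13 mesophyll genes ranged from -0.64 to -0.15 in WT IDLs of 1 d and from 0.89 to 1.02 in light leaves. The mesophyll list held mostly genes of photosynthesis, so it cannot tell fewer mesophyll cells from lower expression of these genes in the dark. For 9 epidermis and trichome genes the ranges were -0.22 to 0.01 and 0.32 to 0.66, and for 9 phloem and xylem genes -0.71 to -0.24 and -0.01 to 0.52. For 11 guard cell genes they were -0.95 to -0.02 and -0.21 to 0.55. In *rpn12a-236* IDLs of 1 d the mesophyll genes ranged from 0.09 to 0.34, the epidermis genes from 0.63 to 0.79, the phloem and xylem genes from 0.28 to 0.44 and the guard cell genes from 0.63 to 0.93, all above every WT IDL library of 1 d. In WT at 1 d the mesophyll, epidermis and phloem lists were lower in every IDL library than in any light library and the guard cell list overlapped, while the 150 genes were higher, and the part of cell types in the results was not tested. Of the 13 genes of dividing cells, 10 had a shared lowest value and were left out.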

How the data were processed

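RNA-seq of 42 leaf libraries was analysed. Per the labels and the study's methods, the authors trimmed reads with Trimmomatic after FastQC 0.11.4, quantified TAIR10 transcripts with kallisto 0.43.0, summed them to genes and applied the blind variance stabilizing transformation of DESeq2 1.14.1 (versions from the submitters' processing notes). The unit of the deposited values is a score, since the authors scaled each gene to a z-score over the 42 libraries. Depth and level can no longer be read from such values. The precision rests on the number of replicates and on the spread of each gene between them. Between genotypes at 1 d, for example, the SE was 0.15 for SAP130b and 0.68 for AT5G50665. Whether z-scores or counts were deposited was not known when the tests were set, and limma 3.58.1 (R 4.3.3) was used because the values are z-scores. All 42 columns were assigned and 0 were left over.

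Genes entered a fit if 3 or more of its libraries lay above the gene's shared lowest value, where it had one (values within 1e-06 of each other in 2 or more libraries). WT at 1 d was fitted on 27 libraries and all mutant comparisons on 30, with Benjamini-Hochberg adjustment over all genes tested and calls at an adjusted p of at most 0.01. Replicates were separate pools of leaves, and p-values measure the spread between them. The members, lists and tests were chosen with earlier results of these data known. Named are the 10 members highest at 6 h, members on a pathway list, up to 5 called members per direction and test with the lowest p, and 3 genes on each side of the last rank, and other names were chosen after their values were seen. The fits were tested on simulated data. Alternatives were other sets of libraries, filters, moderation and thresholds, a replicate block, a flatness limit of 0.3 and leaving out replicates, and fits without either library that stood apart were added after the data were seen. Promoters came from the TAIR10.1 assembly, and Python 3.11.15, pandas 2.3.3 and matplotlib 3.10.9 were used for tables and plots. No comparison columns of the authors were used.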

Additional observations from a re-analysis of the deposited data

Results flagged for a closer look

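For 25 of the 150 genes the change from 0 d light to 1 d IDL differed between *rpn12a-236* and WT in a test of the difference itself (interaction of genotype and time, limma, adjusted p of at most 0.01). The shares of higher and lower changes were 8% and 8.67% of the 150 genes and 8.13% and 8.05% of all genes without a shared lowest value. On leaving out 1 replicate number in turn 2 to 5 were called in each direction, and of 19 calls on the genes named by rule only that on AT1G61370 held each time. Without mutant 6 d replicate 2, the library that stood apart, 20 changes were higher and 19 lower. The share of all genes is given neither for that fit nor for those that left out a replicate number. The values below are the change in the mutant less the change in WT, in z-score units. The change was lower in the mutant for AT1G61370 (-3.34), AT3G08640 (-2.70), emb2742 (-2.46), GSL05 (-2.39), LYK4 (-2.37), AT2G03240 (-2.29), AT5G38212 (-2.27), CDPK1 (-2.22), BAG7 (-2.15), EXO70B2 (-1.72), AT1G05453 (-1.59), AT1G28240 (-1.53) and AT4G30060 (-1.50). It was higher in the mutant for LCBK1 (1.36), LCB2 (1.40), UGT74D1 (1.66), AT2G31751 (1.72), VAD1 (1.74), WRKY22 (1.78), MPK2 (1.79), AT3G15160 (2.03), AT5G14720 (2.33), CYP71B29 (2.54), AT1G33615 (2.76) and AT1G49940 (3.07). CDPK1 and AT1G05453, and UGT74D1 and AT2G31751, overlap on opposite strands, and whether they carry separate signals was not tested. No group of these libraries was tested for single outlying samples, because each has 3.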

How the results depend on the processing

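Replicate numbers were not pairs, since deviations of same-numbered libraries correlated by -0.152 to 0.119. With a replicate block the members called higher and lower were 49 and 1 in WT at 1 d, 40 and 12, 56 and 2, 40 and 20, and 26 and 31 in *rpn12a-236* at 6 h, 1 d, 3 d and 6 d, 16 and 7 between genotypes at 0 d, 28 and 19 at 1 d, and 12 and 14 for the interaction.

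Leaving out each replicate number gave 31 to 47 higher and 0 to 1 lower in WT at 1 d. In the mutant it gave 26 to 33 and 7 to 11 at 6 h, 41 to 54 and 0 to 3 at 1 d, 26 to 38 and 13 to 16 at 3 d, and 15 to 40 and 17 to 26 at 6 d. Between genotypes it gave 7 to 8 and 2 at 0 d, 7 to 11 and 8 to 17 at 1 d, and 2 to 5 in each direction for the interaction. Fits on only the libraries compared gave 0 lower in WT at 1 d, 7 lower at 6 h, 1 lower at 1 d and 17 higher and 15 lower at 6 d in the mutant, 7 and 4 between genotypes at 0 d and 13 and 9 at 1 d. WT libraries of 0 d and 1 d alone gave 0 lower. With the threshold at 0.05, 5 were lower in the mutant at 1 d, 13 lower between genotypes at 0 d, and 24 and 23 differed by interaction. A flatness limit of 0.3 gave 2 lower in WT and 9 lower in the mutant at 1 d. Without light replicate 3 of 6 h, 66 were higher in WT at 1 d. Without replicate 2 of the mutant at 6 d, 46 were higher at 6 h, 6 lower at 1 d, 50 higher at 6 d, 10 lower between genotypes at 0 d, 34 higher at 1 d and 20 higher by interaction. In that fit the 6 d differences of AT3G51640 (-0.12 with all libraries, adjusted p = 0.894, limma) and AT2G48160 (-0.22, adjusted p = 0.737, limma) became 1.08 (adjusted p = 0.00591, limma) and 0.84 (adjusted p = 0.0074, limma), and leaving out each replicate number they ranged from -1.25 to 1.18 and from -0.95 to 0.85. Of the 150 genes, 68 to 98 were chosen again without each replicate number, 95, 128 and 128 without light replicate 3, 1 or 2 of 6 h alone, 52 at the limit of 0.3 and 93 when ranked over the pooled SD. Of 4717 values of named genes under the alternatives, 4334 kept their direction and their side of the threshold, 273 lost a call, 108 gained one and 2 turned. Some of these fits held fewer libraries, and no share of all genes is given for any alternative. The shifts in counts can thus not be read as a trait of the members, and their cause was not tested.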
